A study of Macaca mulatta with 24 samples.

Results

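The claudin family was examined in the colon of rhesus macaques after total-body irradiation (TBI). The family list held CLDN1, CLDN2, CLDN3, CLDN4, CLDN5, CLDN7, CLDN8, CLDN12, CLDN15 and CLDN23, and its members were taken by gene symbol, as every transcript probe on the array that carried a listed name. In this way 8 of the 10 listed genes were found, on 11 of the 43603 probes of the array, while CLDN5 and CLDN23 had no probe of that name and were not analysed here. All 8 genes entered the fit, which covered 13457 named genes. The tissue was a piece of colon from young-adult male animals, kept whole with all its cell types and hybridised singly, so that each array stood for a separate animal. Controls received no radiation and were sampled at 1 time only, labelled day 4 (n = 4), and they served as the reference for both doses and all days. Irradiated animals received 1 uniform dose of cobalt-60 gamma rays, 6.7 Gy or 7.4 Gy, and were sampled on day 4 (n = 4 per dose), day 7 (n = 4 per dose) or day 12 (n = 2 per dose). For the last time point a treatment label gives a later day, but day 12 of the titles was used.

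Claudins are membrane proteins that join neighbouring epithelial cells at the tight junction, where they set which ions and how much water can pass between the cells. Some form pores: CLDN2 makes a channel for small cations and water and is typical of leaky epithelia and of crypts, and CLDN15 is a cation channel of the gut. Others, among them CLDN1, CLDN3, CLDN4, CLDN7 and CLDN8, are regarded as sealing or barrier claudins, and CLDN8 is known from the distal colon and the distal nephron. Claudins are tied to the cytoskeleton through scaffold proteins of the ZO family, and occludin and tricellulin sit beside them in the same junction.

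Levels are given as log2 of the processed signal minus the 75th percentile of the same array, so that 0 is the 75th percentile and 1 unit is a doubling. Levels of different probes were not set against each other. A gene was called when limma gave an adjusted p under 0.05 over all probes fitted and the change was at least 2-fold, and where a gene had several probes the brightest stood for it. Between 66.78% and 85.04% of transcript probes were well above background on each array, and arrays of the same group correlated at r = 0.963 to 0.985. All 10 markers of surface colonocytes were above background on every control array and the mean level of 4 small intestinal enterocyte markers in control animals was low, at -5.06 to -4.58.

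On day 4 the pore-forming CLDN2 rose and the barrier claudin CLDN8 fell at both doses. At 6.7 Gy, CLDN2 was higher and CLDN8 was lower than in control, so 2 of 8 claudin genes were called, where 4.26% of all named genes were (2.36% higher and 1.9% lower). At 7.4 Gy, CLDN1 and CLDN2 were higher and CLDN3, CLDN4, CLDN7 and CLDN8 were lower, 6 of 8 genes against 8.25% of all named genes (4.24% higher and 4.01% lower). The median log2 difference of the 8 genes was -0.34 at 6.7 Gy and -0.84 at 7.4 Gy, beside -0.04 and -0.03 over all named genes. The family and the other gene lists were chosen with earlier results of these data known. Counts of list members here and below therefore describe the chosen genes and do not test the family against other genes. With the array's spike-in controls as the scale, 2 claudin genes were called higher and 1 lower at 7.4 Gy in place of 2 and 4. The median of all probes moved by 0.29 log2 in that comparison, and 2702 probes were called higher and 753 lower. In whole tissue, fewer cells of a type and less RNA in each cell cannot be told apart. All comparisons with control shared the same 4 control arrays. These lay at the first of the 4 positions of their slides and the day 4 arrays of 7.4 Gy all at the second, while those of 6.7 Gy on day 4 were split between both. All arrays of day 7 and day 12 lay at the other 2 positions, so position and day cannot be told apart in comparisons of those days with control or with day 4.

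**Figure D1:**
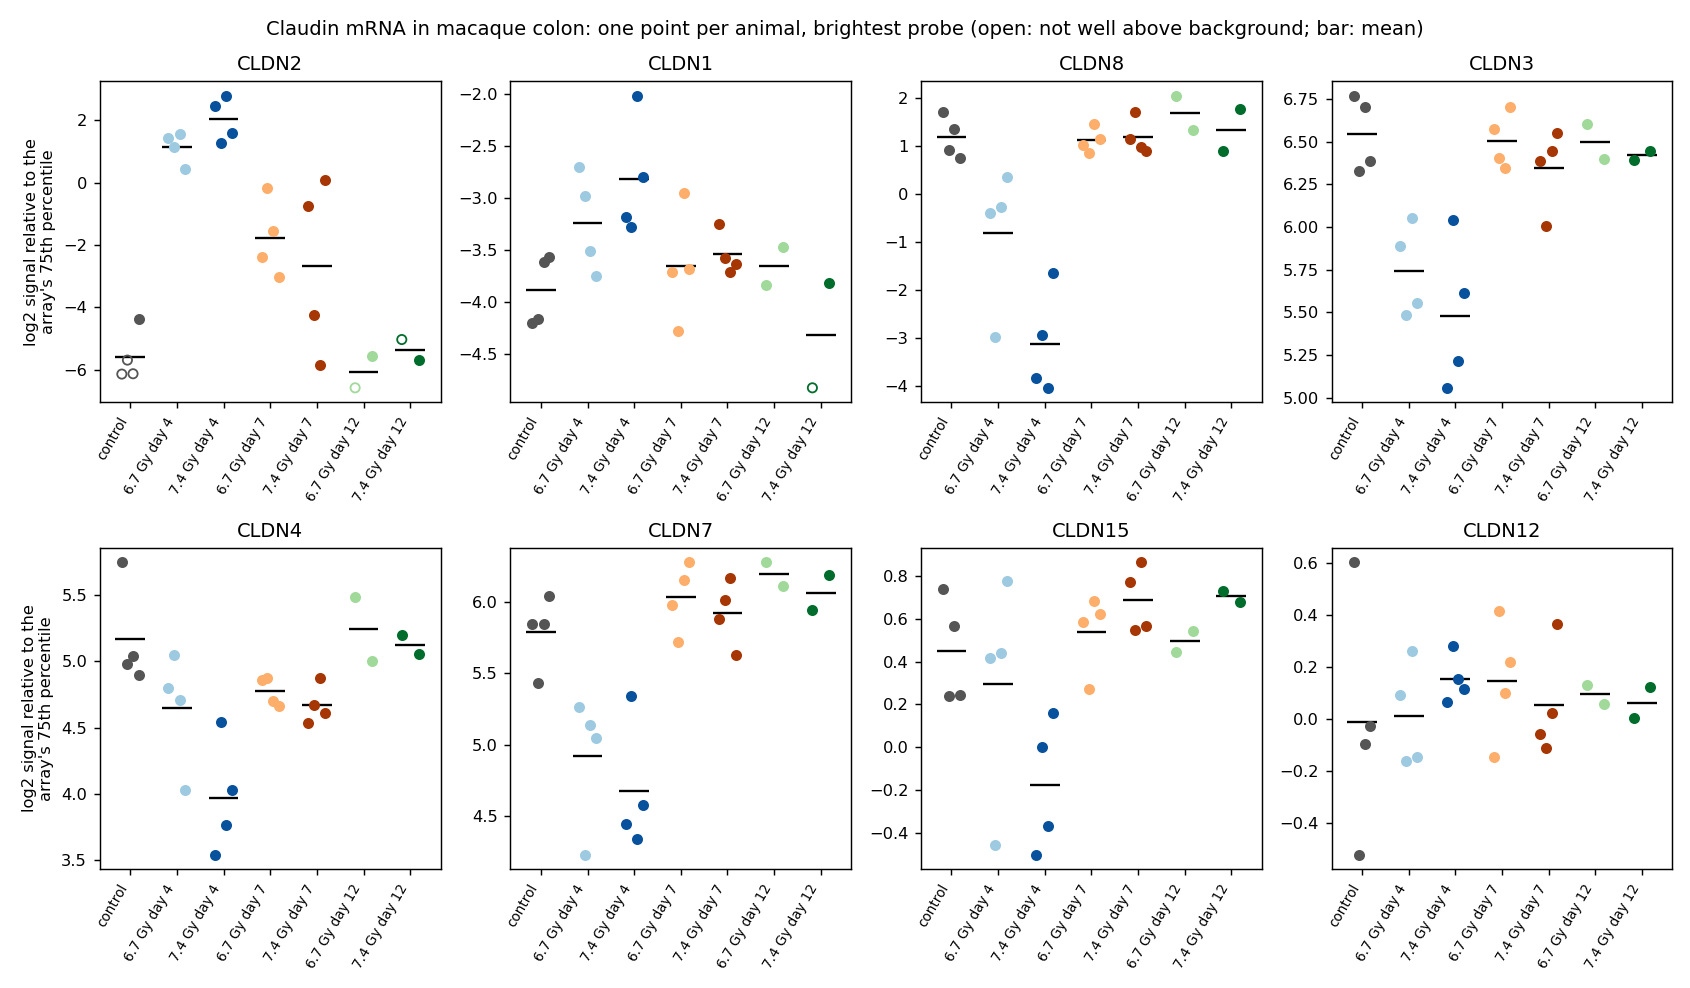
Level of each of the 8 claudin genes (vertical axes, log2 processed signal relative to the 75th percentile of the array) in every animal, by group; each point is an animal, open points are arrays on which the probe was not well above background, and the bar is the group mean. CLDN2 stood at 0.44 or above in all day 4 irradiated animals and at -4.36 or below in control, while CLDN8 was lowest on day 4 at 7.4 Gy.

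CLDN2 was the member with the widest range. In the control animals it stood at -6.14, -5.69, -6.13 and -4.36, and only the last of these values was well above background. On day 4 it stood at 1.43, 1.15, 1.57 and 0.44 after 6.7 Gy, and at 2.46, 1.27, 2.78 and 1.58 after 7.4 Gy. The groups did not overlap, and the lowest animal at 6.7 Gy lay 4.80 log2 above the highest control animal, a gap of 27.9-fold. The difference of the means was 6.72 log2 (SE 0.93, adjusted p = 0.000426) at 6.7 Gy and 7.61 log2 (SE 0.93, adjusted p = 3.72e-05) at 7.4 Gy. The size of these differences rested on control signals of 7.80 to 33.0 units, 3 of them not well above background, so the order of magnitude is less certain than the direction. Within the slides that held both groups the difference was 7.71 and 6.13 at 6.7 Gy, and 8.59 and 5.64 at 7.4 Gy. Here and below, each value within a slide is 1 animal against 1 other animal. Once position on the slide and day of scanning were both fitted as blocks, the 7.4 Gy call was lost (8.15 log2, adjusted p = 0.0813).

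CLDN8, a barrier claudin, moved the other way. The control animals stood at 1.71, 0.92, 1.35 and 0.75. After 6.7 Gy the day 4 animals stood at -0.39, -2.97, -0.28 and 0.35, and after 7.4 Gy at -3.84, -2.94, -4.03 and -1.64. Neither irradiated group overlapped the control animals, but the gap was 0.40 log2 at 6.7 Gy and 2.39 log2 at 7.4 Gy. The difference was -2.005 (95% interval -3.16 to -0.85, adjusted p = 0.0283) at 6.7 Gy and -4.30 (-5.45 to -3.14, adjusted p = 5.64e-05) at 7.4 Gy. The call at 6.7 Gy was lost without control replicate 1 (-1.83), without control replicate 3 (-1.95) and without replicate 2 of the irradiated animals (-1.29), the last being the animal at -2.97. It was also lost with slide as a block (adjusted p = 0.105), with only the 2 groups fitted (adjusted p = 0.129) and by the methods' t-test, the test named by the study (adjusted p = 0.209). Within slides the difference was -1.99 and -0.57 at 6.7 Gy and -5.19 and -3.69 at 7.4 Gy, and it was -1.28 and -2.73 within the first and second scan day at 6.7 Gy.

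CLDN3, CLDN4 and CLDN7, barrier claudins of the intestinal epithelium, fell at 7.4 Gy by smaller amounts. CLDN3 stood at 6.77, 6.33, 6.70 and 6.39 in the control animals and at 5.06, 6.04, 5.21 and 5.61 on day 4 after 7.4 Gy, with 5.89, 5.48, 6.05 and 5.55 after 6.7 Gy. Both irradiated groups lay wholly below the control animals. The difference was -1.06 (SE 0.19, adjusted p = 0.000923) at 7.4 Gy, and -0.80 (adjusted p = 0.014) at 6.7 Gy, which did not reach 2-fold. A second CLDN3 probe differed by -1.48 (adjusted p = 3.01e-05) and -0.90 (adjusted p = 0.00449), also without overlap, so the probes gave the same direction and different sizes. The CLDN3 call at 7.4 Gy lay near the 2-fold limit, and it was lost without control replicate 1 (-0.99), without irradiated replicate 1 (-0.92) and without irradiated replicate 3 (-0.98). It was also lost with normexp correction (-0.99), median scaling (-0.99), spike-in scaling (-0.78) and slide as a block (-0.97), each under 2-fold, and with position and scan day both as blocks (-1.20, adjusted p = 0.195).

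CLDN4 stood at 5.75, 4.98, 5.04 and 4.89 in the control animals and at 3.54, 4.54, 3.76 and 4.03 after 7.4 Gy, without overlap. After 6.7 Gy it stood at 4.80, 5.05, 4.71 and 4.03, a range that overlapped that of the control animals. The difference was -1.20 (SE 0.23, adjusted p = 0.00136) at 7.4 Gy, and -0.52 (adjusted p = 0.152) at 6.7 Gy. With array position as a block, which rests on the 6.7 Gy arrays of day 4 found at both positions, the 7.4 Gy difference was -0.64 (adjusted p = 0.319). The difference was -0.21 (adjusted p = 0.900) once the day of scanning was added, so the CLDN4 call was lost in both. It was also lost with spike-in scaling and by the methods' t-test.

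CLDN7 stood at 5.85, 5.43, 5.85 and 6.04 in the control animals. It stood at 5.26, 4.23, 5.14 and 5.05 after 6.7 Gy and at 4.45, 5.34, 4.34 and 4.58 after 7.4 Gy. No irradiated animal of day 4 reached the lowest control animal, although replicate 2 at 7.4 Gy came within 0.09 log2 of it. The difference was -0.87 (SE 0.23, adjusted p = 0.0224) at 6.7 Gy, under 2-fold, and -1.12 (SE 0.23, adjusted p = 0.00245) at 7.4 Gy. The 7.4 Gy call was lost with spike-in scaling (-0.83) and with position and scan day both as blocks (-1.96, adjusted p = 0.0671), while CLDN7 was called at 6.7 Gy with those blocks (-1.21, adjusted p = 0.0316) and with position alone (-1.04, adjusted p = 0.0359). Within the shared slides the 7.4 Gy differences were -1.64 and -0.34 for CLDN3, -1.51 and -0.35 for CLDN4, and -1.40 and -0.70 for CLDN7. All of them were below 0, and with each gene the second slide, that of irradiated replicate 2, gave the smaller difference. Each slide set 1 irradiated animal against 1 control animal, the same for all genes, so slide and animal cannot be told apart there.

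CLDN1, a barrier claudin with low signal here, was the other member to rise. It stood at -4.20, -4.17, -3.61 and -3.57 in the control animals and at -3.18, -3.28, -2.01 and -2.79 on day 4 after 7.4 Gy, without overlap. After 6.7 Gy it stood at -2.70, -2.98, -3.51 and -3.75, which overlapped the control range. The difference was 1.07 (95% interval 0.42 to 1.73, adjusted p = 0.021) at 7.4 Gy and 0.65 (adjusted p = 0.195) at 6.7 Gy. This was the least stable of the calls: it was lost in 6 of the 17 other ways of processing, among them normexp background correction (0.51, adjusted p = 0.112) and slide as a block (0.70, adjusted p = 0.117), and without control replicate 1 (0.97), control replicate 2 (0.98) or irradiated replicate 3 (0.81). Within slides the difference was 0.44 and 0.29.

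CLDN15 and CLDN12 were not called. The brightest CLDN15 probe stood at 0.74, 0.24, 0.56 and 0.24 in the control animals and at -0.50, 0.00, -0.37 and 0.16 on day 4 after 7.4 Gy. The groups did not overlap, and the difference of -0.62 (adjusted p = 0.0408) was 1.54-fold, under the 2-fold limit. The second CLDN15 probe differed by -0.12 in the same comparison, so the probes of this gene disagreed in size. CLDN12, a claudin whose role in the gut is less settled, had group means between -0.01 and 0.15 with its brightest probe over all 7 groups, and differed from control by 0.02 at 6.7 Gy and 0.16 at 7.4 Gy on day 4. Its second probe was well above background on 4 of the 24 arrays.

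**Figure D2:**
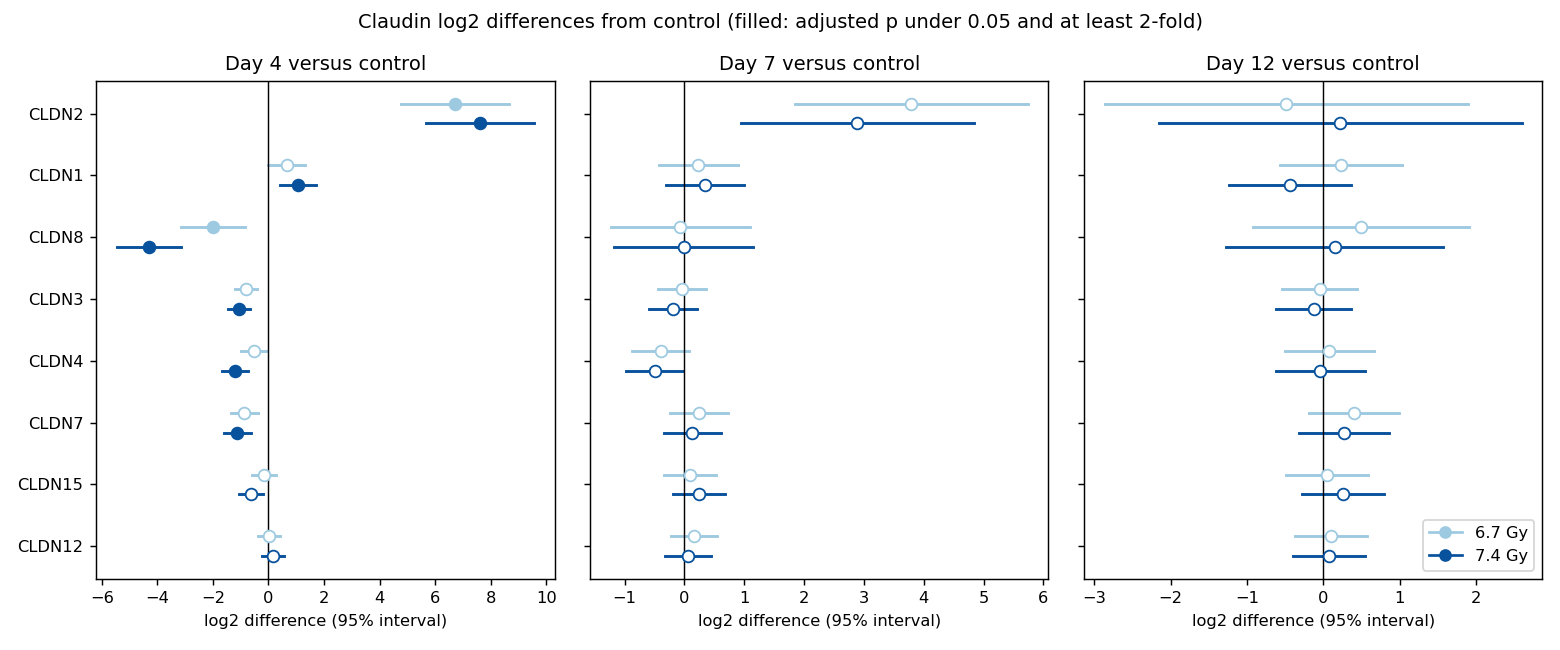
Log2 difference from control (horizontal axes) of each claudin gene on day 4, day 7 and day 12 at 6.7 Gy and 7.4 Gy; points are the fitted differences, lines are 95% intervals and filled points were called. CLDN2 lay far to the right and CLDN8 to the left on day 4, and no gene was called on day 7 or day 12; each panel has its own scale.

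Counted without the 2-fold limit, 4 claudin genes passed the adjusted p at 6.7 Gy and 7 at 7.4 Gy on day 4, beside 11.1% and 22.2% of all named genes. Likewise 4 and 7 of the 8 genes showed no overlap with the control animals, beside 17.4% and 25.8% of all named genes. CLDN12 was the only member that neither passed at any fold nor separated from control on day 4.

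The doses were compared directly on each day. On day 4 no claudin gene was called by limma, as for 0% of all named genes, although 3 had an unadjusted p under 0.05, and the methods' t-test called 0 after adjustment. Here and below, counts at an unadjusted p stand without the share of all named genes, so they cannot be set against a background. CLDN8 had the widest difference, -2.29 (95% interval -3.45 to -1.13, adjusted p = 0.35) from 6.7 to 7.4 Gy, and the ranges overlapped. Without replicate 2 of the 6.7 Gy animals CLDN8 was called (-3.005, adjusted p = 0.0260), and within the slides that held both doses its difference was -3.64 on one and 1.32 on the other. CLDN7 likewise differed by -0.92 and 0.34 on those slides. CLDN4 differed by -0.68 (-1.16 to -0.20, adjusted p = 0.611). For CLDN2 the interval of the dose difference ran from -1.06 to 2.82 around 0.88, so neither a fall of up to 1.06 nor a rise of up to 2.82 log2 was excluded by it. By day 7 the dose difference of CLDN8 was 0.06 and that of CLDN2 was -0.90 (-2.84 to 1.04), or 0.15 without replicate 3 of the 7.4 Gy animals. No claudin gene had an unadjusted p under 0.05 on day 7 or day 12. The change of the dose difference from day 4 to day 7 was 2.35 for CLDN8 (0.71 to 3.99, adjusted p = 0.994), again without a call, beside 0.00743% of all named genes. A p that misses the threshold does not show that the doses acted alike.

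No claudin gene was called against control on day 7 at 6.7 Gy or 7.4 Gy, beside 0.386% and 0.498% of all named genes, with 1 and 2 claudin genes at an unadjusted p under 0.05 and none by the methods' t-test after adjustment. CLDN2 stood at -2.38, -0.19, -1.56 and -3.03 after 6.7 Gy, all above the highest control animal. After 7.4 Gy it stood at -0.74, -4.25, -5.85 and 0.09, and replicate 3 lay inside the control range while replicate 4 lay close to the day 4 levels. The differences from control were 3.79 (95% interval 1.85 to 5.74, adjusted p = 0.0841) and 2.89 (0.95 to 4.83, adjusted p = 0.203). Without replicate 3 of the 7.4 Gy animals CLDN2 was called on day 7 at that dose (3.95, adjusted p = 0.0243). Within slides the 6.7 Gy difference ran from 1.34 to 5.50, and the 7.4 Gy differences were 0.29 and 5.78.

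CLDN8 was back within 0.75 to 1.71, the control range, in all day 7 animals, with 1.005, 0.85, 1.46 and 1.14 after 6.7 Gy and 1.14, 1.69, 0.97 and 0.88 after 7.4 Gy. CLDN4 stood at 4.86, 4.87, 4.70 and 4.66 after 6.7 Gy and at 4.53, 4.67, 4.87 and 4.61 after 7.4 Gy, every animal below the lowest control animal at 4.89 by a narrow margin. The differences of -0.39 (adjusted p = 0.624) and -0.50 (adjusted p = 0.431) were not called. The second CLDN3 probe at 7.4 Gy differed by -0.61 (adjusted p = 0.140), also just below every control animal, while the brightest differed by -0.20 (adjusted p = 0.767) and overlapped. By the brightest probe, 2 claudin genes at 6.7 Gy and 1 at 7.4 Gy had no overlap with control on day 7, beside 7.93% and 6.6% of all named genes.

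On day 12 no claudin gene was called at either dose, beside 0.0149% of all named genes at each, and none had an unadjusted p under 0.05 or passed the methods' t-test. CLDN2 stood at -6.58 and -5.55 after 6.7 Gy and at -5.03 and -5.69 after 7.4 Gy, within or just below the control range, and 1 of the 2 arrays at each dose was not well above background. Its difference from control was -0.48 (95% interval -2.86 to 1.90) and 0.22 (-2.16 to 2.60). With 2 animals per dose these intervals were wide. CLDN7 was above every control animal at 6.7 Gy, with a difference of 0.40 (adjusted p = 0.833). It was the only member without overlap at 6.7 Gy, beside 17.8% of all named genes, and at 7.4 Gy there was none, beside 16% of all named genes.

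The irradiated days were also compared with each other, with the doses pooled. From day 4 to day 7, 3 of 8 claudin genes were called, beside 5.05% of all named genes (2.66% higher and 2.39% lower): CLDN7 and CLDN8 rose and CLDN2 fell. The size of the CLDN2 difference on day 12 rests on signals near background. The same 3 genes were called on day 12 against day 4, beside 7.65% of all named genes (4.13% higher and 3.51% lower). The animals of the days did not overlap for 3 claudin genes on day 7 against day 4, beside 4.58% of all named genes, and for 4 on day 12 against day 4, beside 15.1%. Without the 2-fold limit 5 and 7 claudin genes passed, beside 28.4% and 26.7% of all named genes. CLDN7 was 2.27-fold higher on day 7 (1.18 log2, adjusted p = 7.24e-05) and 2.52-fold higher on day 12 (1.33 log2, adjusted p = 0.000147). CLDN8 rose by 3.11 log2 (adjusted p = 3.69e-05) and 3.47 log2 (adjusted p = 8.17e-05). CLDN3 passed the adjusted p in both comparisons below 2-fold, at 1.76-fold (adjusted p = 0.000339) and 1.80-fold (adjusted p = 0.00132) higher. CLDN1 was lower on day 12 than on day 4 by 0.96 log2 in size (-0.96, adjusted p = 0.0146), just under 2-fold. It was called with quantile or median scaling, which gave 2 genes higher and 2 lower in place of 2 and 1. CLDN1 was also called with slide or scan day as a block, and when some single arrays of day 4 were left out. CLDN4 was 1.84-fold higher on day 12 (adjusted p = 0.00358), and its day 7 difference was 0.42 (adjusted p = 0.0642). Between day 7 and day 12 no claudin gene was called, beside 0.134% of all named genes. In that comparison 2 genes had an unadjusted p under 0.05 and the methods' t-test called 0 after adjustment. CLDN2 had the widest difference there, -3.47 (-5.16 to -1.79, adjusted p = 0.0895), and it was called without replicate 3 of 7.4 Gy on day 7 (adjusted p = 0.0103).

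Ordered by their means over the 7 groups, neighbouring groups were never called different for any member. The CLDN2 order ran from 7.4 Gy day 4 (2.03) through 6.7 Gy day 4 (1.14), 6.7 Gy day 7 (-1.79) and 7.4 Gy day 7 (-2.69) to the other 3 groups between -6.06 and -5.36. The widest step in it, from 6.7 Gy on day 4 to 6.7 Gy on day 7, was 2.93 log2 (adjusted p = 0.078). For CLDN8 the 2 lowest groups were those of day 4, at -3.11 and -0.82, and the step from 6.7 Gy on day 4 up to 6.7 Gy on day 7 was 1.94 log2 (adjusted p = 0.054). For CLDN7 the step between 6.7 Gy day 4 and control passed the adjusted p at under 2-fold.

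The rest of the family on the array gave no call. Of 13 other claudin genes with a probe, 8 were tested, and CLDN6, CLDN16, CLDN18 and CLDN22 were not well above background on any array. None of the 8 was called against control on any day at either dose by limma. Of all named genes 4.26% and 8.25% were called on day 4 at 6.7 and 7.4 Gy, and 0.0149% to 0.498% later. With 8 genes, 0 calls lie near these shares and do not show that the other claudins kept their level. At an unadjusted p under 0.05 there were 2 on day 4 at 6.7 Gy, 3 at 7.4 Gy, and 0 or 1 on the later days. The methods' t-test called 0 after adjustment. CLDN25 alone of the 8 passed the adjusted p at any fold on day 4, with -0.60 (adjusted p = 0.013) at 7.4 Gy, beside 22.2% of all named genes there.

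Partners of the claudins in the junction fell on day 4 where they were called at all. From a list of 32 partner names, some of which stand for the same gene, 23 were tested. None was called higher, while 2 were called lower at 6.7 Gy and 5 at 7.4 Gy. Of all named genes 1.9% and 4.01% were called lower. The methods' t-test called 4 partners at 7.4 Gy, beside 1640 of the 38229 probes kept. The median log2 difference of the list was -0.32 and -0.40, beside -0.04 and -0.03 over all named genes. TJP3, a ZO scaffold protein, differed by -1.04 (adjusted p = 0.0253) and -1.58 (adjusted p = 0.000785), and OCLN, which encodes occludin, by -0.99 (adjusted p = 0.00518, under 2-fold) and -1.22 (adjusted p = 0.000394). CRB3 and PATJ of the Crumbs polarity complex differed by -1.25 (adjusted p = 0.000524) and -1.36 (adjusted p = 0.000605) at 7.4 Gy, and the scaffold MAGI3 by -1.14 (adjusted p = 0.000332). INADL is an older name of PATJ, and its much dimmer probe differed by -0.23. With both taken as 1 gene by the brighter probe, that of PATJ, 22 genes were tested, the counts were again 2 and 5 lower, and the medians were -0.30 and -0.41. The count was 3 with spike-in scaling at 7.4 Gy and 0 once slide position and scan day were both blocks. Over all probes these settings called 3455 and 540. At 6.7 Gy the count of partners was 0 with normexp correction and with the methods' t-test, which called 716 and 489 of all probes. PARD6A, a polarity protein, differed the other way by 0.94 (adjusted p = 0.00871) at 6.7 Gy, under 2-fold. No partner was called by limma against control on day 7 or day 12, where 0.0149% to 0.498% of all named genes were. In each comparison 1 to 4 partners had an unadjusted p under 0.05, and the methods' t-test called 0 after adjustment. Between day 4 and day 12 TJP3 (1.55), MAGI3 (1.25), PATJ (1.09) and CGN (1.03), the last encoding cingulin, rose, and OCLN rose 2.14-fold.

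**Figure D3:**
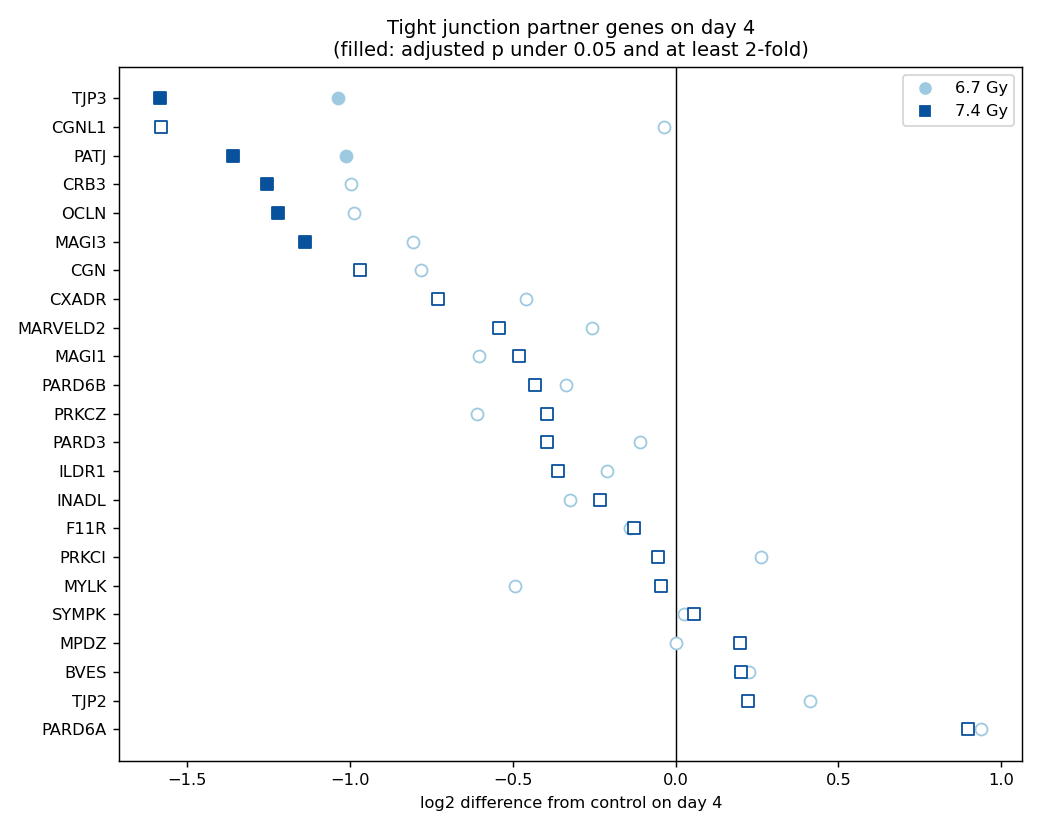
Log2 difference from control on day 4 (horizontal axis) of the 23 tight junction partner names tested (PATJ and INADL are 1 gene), at 6.7 Gy and 7.4 Gy; filled points were called. All 5 called genes at 7.4 Gy lay below 0, TJP3 furthest at -1.58.

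Genes known to act on claudins moved in both directions. Of 34 listed regulators 24 were tested. On day 4 at 6.7 Gy, 1 was higher and 2 lower, and at 7.4 Gy 3 were higher and 3 lower. Of all named genes 2.36% were higher and 1.9% lower at 6.7 Gy, and 4.24% and 4.01% at 7.4 Gy. The methods' t-test called 1 regulator at 6.7 Gy and 4 at 7.4 Gy, beside 489 and 1640 of the 38229 probes kept. SNAI1, the repressor Snail of epithelial junction genes, rose by 1.81 log2 (adjusted p = 0.0237) and 2.20 log2 (adjusted p = 0.00386). The cytokine genes IL1B (2.25, adjusted p = 0.0224) and TNF (1.20, adjusted p = 0.0339) rose at 7.4 Gy. VDR, the vitamin D receptor, differed by -1.60 (adjusted p = 0.00517) and -2.24 (adjusted p = 0.000149), and the intestinal transcription factor CDX2 by -1.21 (adjusted p = 0.0116) and -1.29 (adjusted p = 0.00345). KLF4, a factor of differentiated epithelium, differed by -1.14 (adjusted p = 0.000754) at 7.4 Gy. EPCAM, whose protein binds CLDN7, differed by -0.92 (adjusted p = 0.00186), under 2-fold. No regulator was called by limma against control on day 7 or day 12, where 0.0149% to 0.498% of all named genes were. In each comparison 0 to 2 regulators had an unadjusted p under 0.05, and the methods' t-test called 0 after adjustment. Against day 4, on day 12 VDR (2.06), CDX2 (1.38), KLF4 (1.33) and SPINT2 (1.04) rose, and IL1B, SNAI1, KLHL3 and TNF fell by 2.35, 1.61, 1.34 and 1.16.

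The surface colonocyte and pan-epithelial lists were lower on day 4, as several claudins were, and other lists took other courses. Red blood cell markers, for example, stayed low on day 7, with means of -1.55 at 6.7 Gy and -2.11 at 7.4 Gy beside 1.76 in control. The part of the cell types in the claudin changes was not tested. The marker counts of day 4 stand beside 2.36% of all named genes called higher and 1.9% lower at 6.7 Gy, and 4.24% and 4.01% at 7.4 Gy. Of 10 surface colonocyte markers 6 were called lower on day 4 at 6.7 Gy and 8 at 7.4 Gy. The methods' t-test called 2 and 4 of them, beside 489 and 1640 of the 38229 probes kept. CA1, a carbonic anhydrase of mature colonocytes, differed by -6.05 and -7.46. The summed level of that list, as the mean over its genes, ranged from 4.43 to 4.84 in the control animals, from 1.18 to 2.99 on day 4 after 6.7 Gy, and from -0.13 to 2.89 after 7.4 Gy. It ranged from 3.87 to 4.42 and from 2.37 to 4.50 on day 7, and from 4.34 to 4.93 over the 4 animals of day 12. With array position as a block the count of colonocyte markers called was 2 at each dose, where 1559 and 3001 of all probes were called. Of 8 pan-epithelial markers 2 were lower at each dose, VIL1 (-1.64 at 7.4 Gy) and CDX2, and all 8 were above background on every array. Their level ranged from 3.37 to 3.50 in the control animals, from 2.33 to 3.17 at 6.7 Gy and from 2.51 to 2.82 at 7.4 Gy on day 4.

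Of 6 goblet cell markers TFF3 (-1.39) and ZG16 (-1.59) were lower at 7.4 Gy and none was called by limma at 6.7 Gy, where 0 had an unadjusted p under 0.05. Of 6 crypt and proliferation markers ASCL2 (1.05) was higher at 7.4 Gy, and the list ranged from -1.68 to -0.86 in control and from -0.46 to 0.31 at 7.4 Gy. Of 8 leukocyte markers S100A8 (3.61) and S100A9 (2.23), both typical of neutrophils and monocytes, were higher at 7.4 Gy, and 6 were not called. The mean of the list was -1.92 to -1.24 in control and -1.28 to -0.31 at 7.4 Gy. The median log2 difference of the 8 genes was -0.09, so the higher mean rests on S100A8 and S100A9 and not on the list as a whole. On day 7 PTPRC, which encodes the leukocyte antigen CD45, was lower at both doses (-1.53 and -1.54). Of all named genes 0.386% and 0.498% were called on that day. Of 3 red blood cell markers HBB (-5.94) and ALAS2 (-2.72) were lower on day 4 at 6.7 Gy and HBB (-5.96) at 7.4 Gy, with the list at 0.54 to 2.32 in control, -1.73 to -0.69 at 6.7 Gy and -1.73 to -0.08 at 7.4 Gy. Of 4 small intestinal enterocyte markers MTTP (2.51) was higher at 7.4 Gy. Of 8 endothelial markers VWF (1.23) was higher at 7.4 Gy, while of 3 smooth muscle markers none was called by limma at either dose on day 4, and 0 had an unadjusted p under 0.05.

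**Figure D4:**
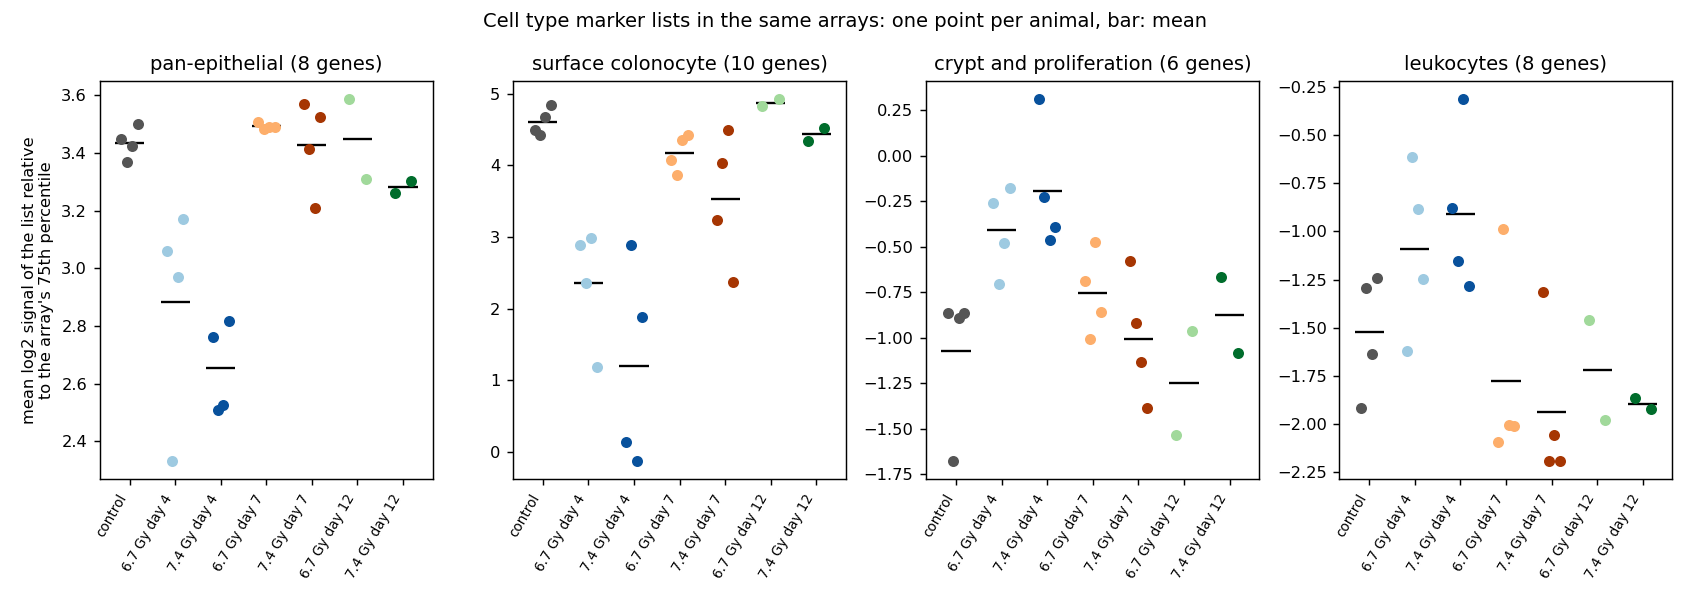
Mean log2 level over the genes of 4 marker lists (pan-epithelial, 8 genes; surface colonocyte, 10; crypt and proliferation, 6; leukocytes, 8) in every animal, by group; each point is an animal. The colonocyte list was below 3 in all day 4 irradiated animals and above 4 in all control animals.

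The genes whose levels followed each claudin most closely over the 24 arrays were found by Pearson's r over 13449 other named genes. These coefficients describe arrays that share groups, and they carry no test. CLDN2 was most like GPX2 (r = 0.963), an epithelial glutathione peroxidase, CHI3L1 (0.957) and PI3 (0.955). CLDN8 was most like NXPE4 (0.965), HSD11B2 (0.961), the enzyme that inactivates cortisol in mineralocorticoid target cells, and C12H2orf88 (0.960). CLDN3 was most like SLC26A3 (0.935), the chloride-bicarbonate exchanger of the colonic surface, CLDN7 was most like PAK1 (0.961), CLDN4 was most like CCDC115 (0.909) and then KLF4 (0.898), and CLDN1 was most like PSMB1 (0.846). CLDN15 was most like ACAA1 (0.890), with NXPE4 (0.873) next. CLDN12 had the weakest best match, HIATL1 (0.745). Among the members, r was 0.887 between CLDN3 and CLDN7, 0.886 between CLDN7 and CLDN8 and 0.875 between CLDN8 and CLDN15. CLDN2 ran opposite to CLDN7 (-0.78) and CLDN8 (-0.773), and with CLDN1 (0.641).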

How the data were processed

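Colon RNA of 24 animals was hybridised to 1-colour Agilent rhesus arrays of 45220 spots, 1 array per animal. The deposited files are scanner output made by the authors with Feature Extraction 11.0.1.1, and per the file headers they hold the processed intensity of each spot, with background subtracted. The authors' normalized table holds log2 values scaled to the 75th percentile and centred on each probe's median, and it served as an alternative and as the source of gene names. The deposited table of raw values repeats the intensities and was not used. Depth does not apply to arrays, and the number of animals limits the precision.

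Here log2 of the processed intensity was set relative to the 75th percentile of each array, and spots of 1 probe were averaged after outlier spots were left out. Probes well above background on at least 2 arrays were kept (38229 of 43603, 38209 fitted). Names came from the series table (18640 probes) or RefSeq by accession (3268). All 7 groups were fitted together with limma 3.58.1 in R 4.3.3, p-values were adjusted by Benjamini-Hochberg over all probes, and a call needed an adjusted p under 0.05 and a 2-fold change. In all, 13 comparisons were made. The named genes were the listed claudins, and from each other list the called genes with the highest and lowest differences. CLDN25, PARD6A, EPCAM and the calls beyond these were named after their values were seen. The family members and all gene lists were chosen with earlier results of these data known. Alternatives covered background correction, scaling, filters, probe rules, blocks, the methods' t-test and leaving out single arrays. On simulated data for 7.4 Gy against control on day 4, with 36523 probes, 71 of 100 changes of 1.5 log2 and 97 of 100 changes of 3 log2 were recovered, with 9 false calls. The simulated noise was independent, few probes were changed, and slide, position and scan day had no effect. These figures describe the fit under those settings and do not carry over to the real comparison. No sequence or coordinate is printed, since no genome of the array's build was used here.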

Additional observations from a re-analysis of the deposited data

Results flagged for a closer look

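In 3 claudin genes the level differed between days after irradiation by a test of that difference (limma, 8 animals of day 4, 8 of day 7 and 4 of day 12, doses pooled). From day 4 to day 7, CLDN2 changed by -3.82 log2, CLDN7 by 1.18 and CLDN8 by 3.11. On day 12 against day 4 the changes were -7.30, 1.33 and 3.47, where the CLDN2 value rests on day 12 signals near background, 2 of 4 arrays not being well above it. Over 40 sets of 4 arrays, 1 for each claudin gene and group, no array passed Dixon's 95% limit for the gap to its nearest neighbour over the range of the set, a test with little power at 4 arrays that does not show the arrays to be alike.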

How the results depend on the processing

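No called claudin difference changed direction under any alternative. At 6.7 Gy on day 4, 2 claudin genes were called. It was 1, CLDN8 being lost, when only the groups compared were fitted, with a slide block and by the methods' t-test, 4 with no fold minimum, and 1 to 2 when single arrays were left out. Over all probes the first 3 of these settings called 836, 857 and 489, beside 1391 with outlier spots kept. At 7.4 Gy on day 4, 6 claudin genes were called. It was 4 by the methods' t-test, 3 with spike-in scaling, 1 with position and scan day as blocks and 4 to 6 with arrays left out. Over all probes the first 3 of these settings called 1640, 3455 and 540, beside 2689 with outlier spots kept, so the total moved as well. At 7.4 Gy 1 claudin gene was higher and 3 lower with normexp correction, and 2 and 3 with median scaling. A slide block lost CLDN1 and CLDN3, and fitting only the groups compared or a scan day block lost CLDN1. Over all alternatives the count of claudin genes at 7.4 Gy on day 4 ran from 1 to 7. Against control on day 7 the count of 0 became 1 by the methods' t-test without adjustment at 6.7 Gy, and 0 to 1 with arrays left out at 7.4 Gy. Between doses on day 4 the count of 0 became 1 with position as a block and by the methods' t-test without adjustment, and 0 to 1 with arrays left out. From day 4 to day 7 the count of 3 became 5 with no fold minimum. On day 12 against day 4 it was 7 with no fold minimum and 3 to 5 with arrays left out, the 5 without replicate 2 of 6.7 Gy on day 12, when CLDN1 and CLDN4 were added. Where this left 1 animal in a group, it was assumed to vary like the other groups. From day 7 to day 12 it was 1 by the methods' t-test without adjustment and 0 to 1 with arrays left out, the 1 without replicate 3 of 7.4 Gy on day 7. The cause was not tested in any of these. With a replicate block the counts were 2 and 6 on day 4, and the 13 counts were the same as without it. Each array was a separate animal, and replicate numbers were not taken as pairs. Of 30 same-numbered pairs, 4 had deviations correlated above 0.1 (range -0.183 to 0.152). That limit has no reference to set it against, so it cannot show whether the numbers pair animals. CLDN7 was gained at 6.7 Gy on day 4 with position as a block, alone or with scan day. Blocks of position could be fitted for 7 of 13 comparisons, and the methods' t-test was not run for the change of the dose difference. CLDN2 in control animals lay near background, which limits the size of its differences, and 2 animals per group limit day 12. Values within an array position or scan day, the list counts under alternatives and the joining of PATJ with INADL were added after the data were seen.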
